A study of Mus musculus with 66 samples.

Results

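The genes described are 7 that serve as markers of tuft cells in the mouse gut, Pou2f3, Gfi1b, Trpm5, Sh2d6, Avil, Dclk1 and Il25. They were chosen by name, with earlier results of these data known, out of 30452 genes with a measured transcript abundance in 66 tissue samples. The samples came from 19 wildtype C57Bl/6 mice, bought at 6 weeks of age, in a course of colitis induced by 3% dextran sulfate sodium (DSS), which damages the lining of the colon. DSS was given for 6 days from day 0. There were 4 uninjured mice at day 0 and 3 mice at each of days 3, 6, 9, 14 and 20, and the mice of day 3 had not completed the DSS course. Mid-colon, rectum and anus were taken from every mouse (19 samples each). Squamous neo-epithelium, which the labels give as a section of its own, was taken from the 9 mice of days 9, 14 and 20. The muscle layer of each section was discarded before RNA was extracted. Levels are in TPM, an abundance adjusted for transcript length and scaled to the same total in every sample, so that they can be set side by side between genes. Between 11268 and 13789 genes reached 1 TPM in a sample. No read counts were given, which leaves the depth behind each value unknown, and a value of 0 is given as listed at 0.

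Tuft cells are rare chemosensory cells of the gut epithelium. They sense luminal metabolites through a taste-type cascade of G proteins, phospholipase C and the channel Trpm5, and in the small intestine they release IL-25, leukotrienes and acetylcholine, which act on type 2 immune cells and nerves. Their formation requires the transcription factor Pou2f3. Several of their genes are also used by other cells: Pou2f3 by stratified epithelium, Dclk1 by neurons and some stromal cells, Gfi1b by the erythroid and megakaryocyte lineages, and Avil by sensory neurons. In bulk tissue, fewer cells of a type and less RNA per cell cannot be told apart.

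The 7 genes lie on different chromosomes of the GRCm38 build. Pou2f3 (ENSMUSG00000032015) spans chr9:43123939-43210369 on the minus strand, Gfi1b (ENSMUSG00000026815) chr2:28609450-28621982 on the minus strand and Trpm5 (ENSMUSG00000009246) chr7:143069153-143094642 on the minus strand. Sh2d6 (ENSMUSG00000052631) spans chr6:72513641-72521707 on the minus strand, Avil (ENSMUSG00000025432) chr10:127000709-127020994 on the plus strand and Dclk1 (ENSMUSG00000027797) chr3:55242364-55539068 on the plus strand. Il25 (ENSMUSG00000040770) spans chr14:54932695-54935837 on the plus strand. Genes on the other strand overlap 3 of them: Tssc4 overlaps Trpm5, Tsfm overlaps Avil and Gm21954 overlaps Dclk1. The library kit keeps the strand, but whether the quantification used it is not given in the sources used here, so reads in those overlaps are of uncertain origin.

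The start regions are shown for Dclk1, Trpm5 and Avil, the 3 members whose changes over time the results turn on. Each is the 250 bases before an annotated start, 5′ to 3′ on the gene's own strand, from RefSeq on GRCm38.p6. Dclk1 has 2 starts, at chr3:55242114-55242363 for the long first-exon form and at chr3:55461478-55461727 for the form that begins inside the gene. Trpm5 has chr7:143094643-143094892 and Avil chr10:127000459-127000708. Capitals mark ATGCAAA or its reverse complement TTTGCAT, 7 letters of the octamer bound by POU factors such as Pou2f3, searched on both strands.
Dclk1, upstream start: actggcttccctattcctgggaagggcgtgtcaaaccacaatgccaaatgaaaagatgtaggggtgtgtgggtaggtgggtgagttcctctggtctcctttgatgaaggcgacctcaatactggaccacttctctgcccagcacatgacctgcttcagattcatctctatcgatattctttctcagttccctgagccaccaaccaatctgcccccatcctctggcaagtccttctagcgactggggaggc
Dclk1, internal start: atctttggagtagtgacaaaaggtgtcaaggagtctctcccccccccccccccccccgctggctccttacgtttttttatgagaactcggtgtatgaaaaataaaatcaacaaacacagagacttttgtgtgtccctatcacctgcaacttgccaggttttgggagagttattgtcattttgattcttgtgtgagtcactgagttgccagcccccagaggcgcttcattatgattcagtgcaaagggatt
Trpm5: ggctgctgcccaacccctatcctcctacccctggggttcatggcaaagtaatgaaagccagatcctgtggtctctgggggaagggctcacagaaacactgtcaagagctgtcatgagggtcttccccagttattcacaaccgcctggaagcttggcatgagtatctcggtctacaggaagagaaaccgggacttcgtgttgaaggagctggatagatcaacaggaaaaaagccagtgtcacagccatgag
Avil: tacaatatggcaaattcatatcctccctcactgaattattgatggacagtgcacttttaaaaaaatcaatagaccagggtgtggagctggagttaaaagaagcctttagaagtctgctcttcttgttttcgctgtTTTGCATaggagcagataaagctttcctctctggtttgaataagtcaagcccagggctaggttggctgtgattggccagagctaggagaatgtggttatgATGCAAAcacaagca
The 7 letters occurred in the Avil window alone, at 115 and 15 bases before the start, out of 6 windows of the 5 members in the RefSeq table (Dclk1, Trpm5, Avil, Gfi1b, Sh2d6). They occurred in 4.12% of 32851 mouse promoter windows of the same length. The full octamer ATGCAAAT, which contains those 7 letters, was in 0 of the 6 windows and in 1.6% of all windows. A match is a description of the letters only.

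All 7 genes were low in the colon, and each section had its own order of levels. In the 19 mid-colonic samples the mean level ± SD was 1.78 ± 1.22 TPM for Avil, 1.24 ± 0.55 for Sh2d6, 0.855 ± 0.23 for Dclk1 and 0.611 ± 0.36 for Trpm5. Gfi1b (0.15 ± 0.22 TPM), Pou2f3 (0.103 ± 0.079) and Il25 (0.0398 ± 0.058) stayed under 1 TPM in every mid-colonic sample. The 19 rectal samples had Avil at 1.76 ± 1.44 TPM, Dclk1 at 1.38 ± 0.81, Sh2d6 at 1.12 ± 0.64 and Trpm5 at 0.394 ± 0.31. In these sections the SDs of Avil, Sh2d6 and Dclk1 overlapped, so the order among these 3 was not beyond the spread. In the anus the order was different: Pou2f3 came first with 6.18 ± 1.98 TPM, then Dclk1 with 2.93 ± 0.76, Avil with 0.903 ± 0.71 and Sh2d6 with 0.315 ± 0.34. In the 9 samples of neo-epithelium Avil (2.93 ± 1.68 TPM) and Dclk1 (2.27 ± 1.25) led and did not differ beyond their spread, and the other 5 genes had means between 0.0225 and 0.235 TPM. The members therefore did not share one distribution over the sections, as the plot of all 7 genes by section and day shows.

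**Figure D1:**
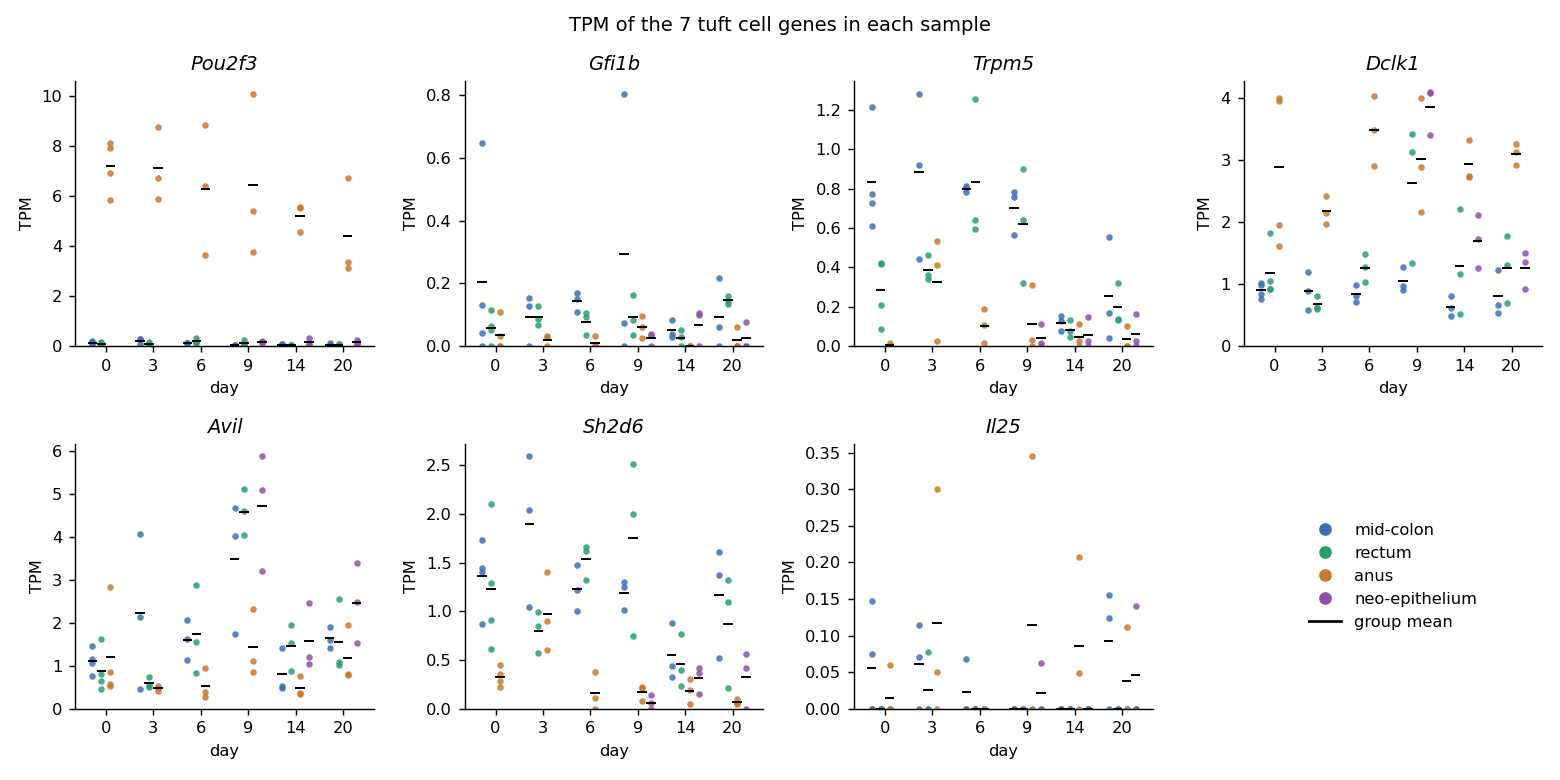
TPM of each of the 7 genes in every sample (vertical axes, linear, a different range for each gene) against experimental day, with points coloured by section and black marks at the group means (4 mice at day 0, 3 at each later day). Pou2f3 is between 3.13 and 10.1 TPM in all 19 anal samples and at most 0.317 TPM in all others, while within the rectum and the neo-epithelium the means of Avil and Dclk1 are highest at day 9.

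At day 0 the anus and the rectum of uninjured mice differed most in Pou2f3, the tuft cell factor. Its anal values were 6.94, 8.15, 7.92 and 5.87 TPM in the 4 mice, and its rectal values were 0.106, 0.0355, 0.0299 and 0.182 TPM. The groups were far apart, with a mean of 7.22 ± 1.04 against 0.0884 ± 0.071 TPM (log2 difference of TPM + 1, 2.91, SE 0.15, adjusted p = 2.91e-07 by limma with Benjamini-Hochberg adjustment over all genes tested, as for every adjusted p here). Dclk1, a kinase that binds microtubules, had anal values of 1.61, 1.96, 4 and 3.95 TPM and rectal values of 1.06, 0.918, 0.922 and 1.83 TPM. It was higher in the anus (log2 difference 0.79, SE 0.25, adjusted p = 0.0208 by limma), although 1 rectal sample lay within the anal range. That call was lost without mouse 2 (adjusted p = 0.0545 by limma) or mouse 3 (adjusted p = 0.125). A gene was tested only if it reached 1 TPM in at least n samples, n being the size of the smaller group. Both members that passed this filter were called, where limma called 60.3% of all genes. Pou2f3 and Dclk1 passed it only through the anal samples, so the filter shaped this count. Without the filter limma called 2 of 7 members higher and 2 lower in the anus, where it called 40% of all genes. For the groups without overlap, 18.9% of all genes were higher and 21.1% lower in every anal than in every rectal sample. Beside them, the 10 squamous keratin and cornification genes summed to 11110 to 19660 TPM in the anus and 14.5 to 145 TPM in the rectum, the 4 fibroblast genes to 1089 to 1452 and 252 to 316 TPM, and their part in these differences was not tested.

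Trpm5 and Sh2d6 were on the opposite side. Trpm5, the channel that depolarises the cell at the end of the taste-type cascade, was listed at 0 in 3 of the 4 anal samples of day 0 and at 0.0149 TPM in the fourth sample. Its rectal values in the same mice were 0.42, 0.0866, 0.208 and 0.415 TPM, all above the anal ones. Sh2d6, an SH2 domain protein of tuft cells, had anal values of 0.454, 0.357, 0.224 and 0.284 TPM and rectal values of 1.29, 0.61, 0.911 and 2.1 TPM, which did not overlap either. Without the filter on low values limma called both lower in the anus (Trpm5 log2 difference −0.34, adjusted p = 0.0137; Sh2d6 −0.70, adjusted p = 0.0204), where it called 40% of all genes with a value. A scale set to 6 pan-epithelial genes, whose levels are lower in the anus, adds 1 amount to the log2 difference of every gene. It moved the median of all genes from −0.15 to 2.03, and with it the sign of both differences (Trpm5 1.84, Sh2d6 1.48), which were below that median on both scales. Leaving out 1 mouse ended the Trpm5 call for mice 1, 3 and 4 (up to adjusted p = 0.064 by limma) and the Sh2d6 call for mice 1 and 3 (up to 0.0748). Avil had anal values of 0.577, 2.85, 0.853 and 0.525 TPM, which overlapped its rectal values, as did those of Gfi1b and Il25. High anal Pou2f3 was thus measured in samples where Trpm5 was at or near 0 and Sh2d6 was below its rectal values.

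Between rectum and mid-colon at day 0, 0 of the 2 members tested were called by limma, where 1.79% of all genes were, and 0 members had an unadjusted p under 0.05. The mid-colonic Trpm5 values were 0.728, 1.21, 0.613 and 0.775 TPM. They were all above the rectal values, a ratio of 0.34 of rectum to mid-colon, but the adjusted p was 0.106 by limma without the filter. Only 0.774% of all genes were lower in every rectal than in every mid-colonic sample of day 0.

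During DSS, in the mid-colon of days 3 and 6, none of the 2 members tested (Avil and Sh2d6) was called by limma, which called 0.375% and 14.9% of all genes on these days. Mid-colonic Trpm5 was 0.444, 0.922 and 1.28 TPM at day 3 and 0.785, 0.813 and 0.804 TPM at day 6. By day 9 it was 0.757, 0.783 and 0.563 TPM. These lay within or beside the day 0 range. Sh2d6 had a day 0 mean of 1.36 ± 0.36 TPM (SD, n = 4), and its means on days 3, 6 and 9 were 1.89 ± 0.78, 1.23 ± 0.24 and 1.19 ± 0.15 TPM (SD, n = 3 each), in groups that overlapped. The rectum had higher Trpm5 at day 6, with 1.26, 0.598 and 0.64 TPM, all above the day 0 values given earlier. Its log2 difference was 0.50 with an adjusted p of 0.0509 by limma without the filter, just past the threshold, and 10% of all genes were higher in every sample of rectal day 6 than in every one of day 0. Dclk1 in the rectum at day 3 was 0.625, 0.596 and 0.801 TPM, below all 4 uninjured samples, as were 9.87% of all genes, and no member was tested there under the filter.

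Day 9, 3 days after the DSS course ended, was when Avil was highest in both colonic sections. Avil encodes advillin, an actin-binding protein of the tuft cell's bundle of microvilli. In the mid-colon it was 1.45, 1.06, 0.762 and 1.16 TPM at day 0 and 1.75, 4.67 and 4.02 TPM at day 9, without overlap, as for 21.2% of all genes. The mean rose from 1.11 ± 0.29 to 3.48 ± 1.53 TPM (log2 difference 1.03, SE 0.26, adjusted p = 0.00893 by limma). In the rectum it was 0.645, 0.466, 0.803 and 1.62 TPM at day 0 and 4.04, 4.6 and 5.13 TPM at day 9, again without overlap, as for 25.5% of all genes. The rectal mean rose from 0.882 ± 0.51 to 4.59 ± 0.54 TPM (log2 difference 1.60, SE 0.21, adjusted p = 3.09e-04 by limma). Pou2f3 in the mid-colon was at the other end at day 9, with 0.0587, 0.0447 and 0.0221 TPM, below its day 0 values of 0.0747, 0.127, 0.155 and 0.186 TPM, as were 12.4% of all genes. It did not pass the filter, and its mid-colonic values overlapped those of day 0 on the other days, as its rectal values did on every day. Both Avil calls held in all 8 alternative settings in which Avil could be fitted and without each of the 7 mice in turn. The rectal value at day 20, 2.56, 1.02 and 1.09 TPM, was below that of day 9 in every sample, as for 20.3% of all genes (log2 difference −1.17, adjusted p = 0.026 by limma). Of the 3 members tested there only Avil was called, where limma called 20.8% of all genes. It is a call that was lost without any 1 of mice 11, 12, 13, 18 and 19 (adjusted p up to 0.109).

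Dclk1 was also higher in the rectum at day 9, with 3.43, 1.34 and 3.13 TPM against 1.06, 0.918, 0.922 and 1.83 TPM at day 0. Mouse 12 of day 9 was below the highest uninjured sample, so the groups overlapped. The mean rose from 1.18 ± 0.44 to 2.63 ± 1.13 TPM (log2 difference 0.70, SE 0.26, adjusted p = 0.0456 by limma). The call was close to the threshold: 4 of 8 alternative settings ended it (adjusted p between 0.00657 and 0.0885 over all 8), as did leaving out any 1 of mice 1, 2, 3, 11 and 13 (adjusted p up to 0.149). In the mid-colon at day 9 Dclk1 was 0.965, 1.28 and 0.906 TPM against 0.764, 0.982, 0.833 and 1.01 TPM at day 0, which overlapped. By day 14 the rectal values had spread to 0.514, 2.22 and 1.16 TPM, and at day 20 they were 1.78, 0.703 and 1.31 TPM.

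In the rectum at day 9, 2 of the 3 members tested were called, where limma called 53.5% of all genes. In the mid-colon 1 of the 2 tested was called, against 43.4% of all genes. These shares are near the background. In the rectum Avil and Dclk1 passed the filter only through the day 9 samples, so the filter shaped that count. Without the filter limma called 1 of 6 members with values higher there and 0 lower. That fit called 4819 of all 21345 genes higher and 2571 lower. The difference between the rectal and mid-colonic response at day 9 was 0.57 for Avil (SE 0.35, adjusted p = 0.432 by limma) and 0.59 for Dclk1 (SE 0.30, adjusted p = 0.325), so neither was shown to respond differently between the sections. On none of the 5 days was a member called in that test, at an adjusted or an unadjusted p under 0.05. It called 6.55% of all genes at day 9, between 0.00755% and 0.00756% on days 14 and 20, and 0% on days 3 and 6. Many other genes moved with Avil and Dclk1 at rectal day 9. The 4 neutrophil genes summed to 10370 to 12250 TPM against 0.797 to 5.22 TPM at day 0, the 4 fibroblast genes to 479 to 896 against 252 to 316 TPM, and the 6 intestinal epithelial genes to 3661 to 4752 against 6445 to 7287 TPM. The 7 neuronal genes summed to 7.74 to 13.5 against 2.82 to 4.34 TPM, and 3 of 3 tested were called higher. Tsfm, which overlaps Avil on the other strand, went from a mean of 12.3 to 23.3 TPM. The part of these genes in the levels of Avil and Dclk1 was not tested.

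The lists of other genes known from tuft cells gave no single direction at rectal day 9, when limma called 33.5% of all genes higher and 20% lower. Of the taste-type cascade (9 genes), 3 were tested and 2 rose, the phospholipases Plcg2 (0.921 to 4.67 TPM) and Plcb2 (0.34 to 1.64 TPM). Of the 6 effector genes for lipid mediators and acetylcholine, 5 were tested, 4 rose and 1 fell, and 3 rose in the fit without the filter. Alox5ap, which presents arachidonic acid to 5-lipoxygenase, rose from 6.87 ± 0.58 to 176 ± 11.6 TPM, and Alox5, the lipoxygenase itself, from 1.3 ± 0.44 to 8.94 ± 2.21 TPM. Hpgds, a prostaglandin D synthase, fell from 24.2 ± 1.03 to 10.7 ± 2.75 TPM (log2 difference −1.13, adjusted p = 4.14e-04 by limma). Of 15 further tuft cell genes, 9 were tested, 5 rose and 1 fell: Cwh43 rose from 4.46 to 70.0 TPM, Kctd12 from 4.87 to 13.7 TPM and Nradd from 1.9 to 4.78 TPM, and Lrmp fell from 81.8 ± 6.86 to 22.4 ± 10.4 TPM. Genes that passed the filter only through high values at day 9 are among these counts. Many of these genes are also made by leukocytes. Ptprc (CD45), which tuft cells share with leukocytes, rose from 2.32 to 45.1 TPM.

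In the mid-colon at day 9 limma called 26.5% of all genes higher and 17% lower. Of 2 taste-type genes tested, Plcg2 rose (0.552 to 1.37 TPM) and Itpr2, an inositol trisphosphate receptor, fell (2.16 to 0.77 TPM), in groups that overlapped and with an adjusted p of 0.0971 by limma without the filter. Of 5 effector genes tested, Alox5ap rose (5.17 to 27.5 TPM) and Hpgds fell (19.3 to 6.23 TPM). Of 8 further tuft cell genes tested, Cwh43 rose (2.28 to 35.1 TPM) and Lrmp (57.7 to 17 TPM) and the ETS factor Spib (2.25 to 0.726 TPM) fell, the last of these with an adjusted p of 0.0795 by limma without the filter.

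Trpm5 was lowest in the colon at day 14, after the acute phase. In the mid-colon it was 0.153, 0.128 and 0.0748 TPM at day 14, against 0.728, 1.21, 0.613 and 0.775 TPM at day 0. Every value of day 14 was below every value of day 0, and the mean was 0.119 ± 0.040 against 0.832 ± 0.26 TPM, a ratio of 0.143. At these levels Trpm5 did not pass the filter. In the fit without it the log2 difference was −0.70 (SE 0.11, adjusted p = 0.0474 by limma), where 0.219% of all genes were called lower, and 5.47% of all genes were lower in every sample of day 14. The call was lost without any 1 of mice 1, 2, 3, 4, 15 and 16 (adjusted p up to 0.155) and on the pan-epithelial scale (−0.37, adjusted p = 0.223), which moved the median of all genes from −0.03 to 0.30. At day 20 the mid-colonic values were 0.17, 0.554 and 0.0386 TPM, again all below day 0, as for 5.58% of all genes, with an adjusted p of 0.215 by limma without the filter. The rectal values at day 14 were 0.131, 0.0745 and 0.0447 TPM, which overlapped those of day 0, since mouse 2 had 0.0866 TPM.

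Sh2d6 was on the same side at day 14. Its mid-colonic values were 0.876, 0.442 and 0.327 TPM against 1.45, 0.867, 1.4 and 1.74 TPM at day 0, and the log2 difference of −0.61 did not pass the test (adjusted p = 0.12 by limma). Its rectal values were 0.766, 0.397 and 0.229 TPM, against 1.29, 0.61, 0.911 and 2.1 TPM at day 0, and the groups overlapped in both sections. Neither Sh2d6 nor Avil was called in the mid-colon at day 14, where limma called 4.36% of all genes (2.55% higher and 1.81% lower). In the other comparisons over time no member was called: 2 were tested in mid-colon at day 20 (1.56% of all genes called) and at day 20 against day 9 (20.6%). In the rectum 3 were tested at day 6 (48.7%), 2 at day 14 (15.8%) and 3 at day 20 (7.68%).

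Among the fixed lists, Rgs13, a regulator of G protein signalling found in tuft cells, fell in the mid-colon at day 14. It was 0.903, 1.65, 1.33 and 2.15 TPM at day 0 and 0.465, 0 and 0.234 TPM at day 14 (log2 difference −1.02, SE 0.22, adjusted p = 0.0359 by limma, and 0.0686 without the filter). Gnat3, the taste G protein alpha-gustducin, was named after its values were seen. It was 0.93, 0.557, 0.861 and 1.75 TPM at day 0 and 0.379, 0 and 0 TPM at day 14 in the mid-colon, without overlap, and did not pass the test without the filter (adjusted p = 0.116 by limma). The taste-type list, which holds Gnat3, had no single direction there. Of its 8 genes with values, 2 were higher and 2 lower without overlap, where 5.47% of all genes were lower. Without the filter limma called 1 of the 8 higher and 0 lower, and 193 of all 21035 genes higher and 46 lower. Hpgds fell in the mid-colon at day 14 too, from 19.3 ± 4.48 to 5.92 ± 2.35 TPM (adjusted p = 0.0211 by limma, and 0.0617 without the filter). Cwh43 (2.28 to 11.3 TPM) and Cd24a (123 to 194 TPM), 2 of the 9 further tuft cell genes tested, rose in the same comparison, with adjusted p values of 0.0956 and 0.0538 by limma without the filter.

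Other epithelial genes did not share one direction in the mid-colon at day 14. Epcam, an adhesion protein of all gut epithelium, had mid-colonic means of 1216 ± 118 TPM at day 0 and 1225 ± 190 TPM at day 14. The endocrine cell gene Chga had 11.3 ± 1.23 and 15.8 ± 3.05 TPM, and 3 of 4 enteroendocrine genes tested were called higher, where limma called 2.55% of all genes higher. The 6 intestinal epithelial genes summed to 5718 to 6625 TPM at day 14 and 6705 to 7304 TPM at day 0, so every sample of day 14 was below every one of day 0. The 6 pan-epithelial genes summed to 7633 to 10100 TPM at day 14, with a median of 8058 TPM, and to 8730 to 12590 TPM at day 0, with a median of 11940 TPM. The neutrophil genes summed to 65.2 to 403 TPM at day 14 against 0.125 to 2.38 TPM at day 0. The 5 muscle genes summed to 177 to 294 TPM at day 14 and 290 to 548 TPM at day 0. The part of these genes in the Trpm5, Rgs13 and Gnat3 values was not tested. Tssc4, on the other strand of Trpm5, had means of 10.0 ± 0.95 and 8.83 ± 2.25 TPM.

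**Figure D2:**
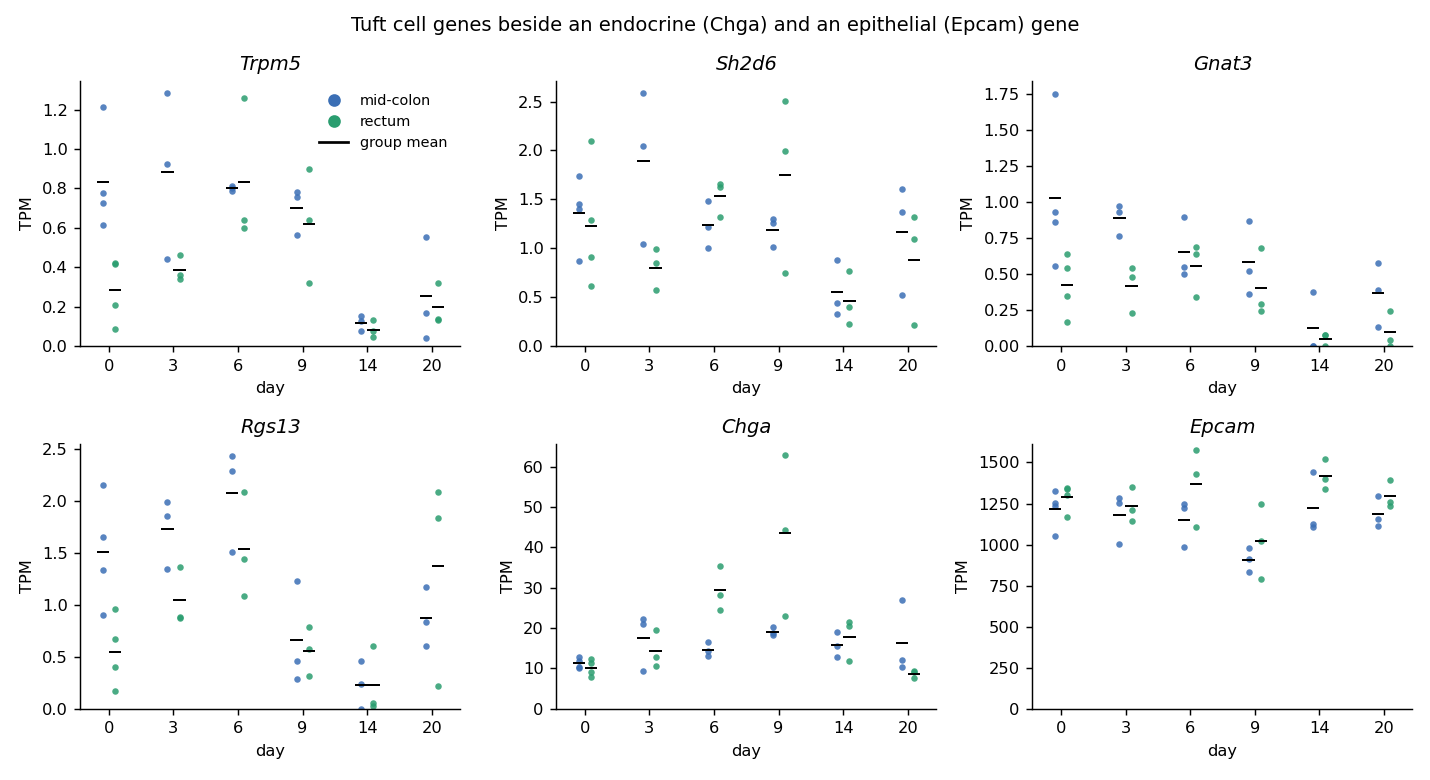
TPM of Trpm5, Sh2d6, Gnat3, Rgs13, Chga and Epcam (vertical axes, linear) against experimental day in mid-colon and rectum, with a point for each mouse and a black mark at each group mean (4 mice at day 0, 3 at each later day). The mid-colonic means of Trpm5 and Gnat3 go from 0.832 and 1.02 TPM at day 0 to 0.119 and 0.126 TPM at day 14, while those of Epcam lie between 909 and 1225 TPM on all days.

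In the anus no member was called on any later day against day 0, in fits of 2 or 3 members a day. Limma called 0.044%, 15%, 5.09%, 4.27% and 1.46% of all genes on days 3, 6, 9, 14 and 20. At an unadjusted p under 0.05, 1 member result in these fits passed, the difference of Pou2f3 at day 20 (−0.66 on the log2 scale). Anal Pou2f3 was 6.72, 5.91 and 8.77 TPM at day 3, 3.66, 8.84 and 6.41 TPM at day 6, and 5.41, 10.1 and 3.79 TPM at day 9. At day 14 it was 4.57, 5.55 and 5.57 TPM, and by day 20 it was 3.13, 3.36 and 6.72 TPM. These values overlapped those of day 0 on days 3, 6, 9 and 20, and those of day 14 were all below the day 0 range, as were 5.43% of all genes. Trpm5 in the anus was 0.532, 0.0241 and 0.413 TPM at day 3, above all 4 samples of day 0. Its full form of 25 exons was at most 0.0241 TPM in any anal sample, so the values of 0.532 and 0.413 TPM were mostly other annotated forms. Sh2d6 at day 3, at 0.899, 1.41 and 0.601 TPM, was above all of its day 0 values too, a pattern shown by 3.2% of all genes. Avil at day 3, at 0.412, 0.522 and 0.488 TPM, was below all of its day 0 values, as were 1.42% of all genes. Sh2d6 at day 20 was 0.0548, 0.0497 and 0.0957 TPM, below all of them, as for 5.57% of all genes. The 6 intestinal epithelial genes in the anal sections summed to 795 to 2724 TPM at day 0, 1454 to 2796 TPM at day 3 and 16.8 to 40.1 TPM at day 6, and their part in the Trpm5 and Sh2d6 values was not tested.

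The neo-epithelium was set against rectum and anus, each from the same 9 mice, with day as a covariate. Pou2f3 was between 0.0558 and 0.317 TPM in the 9 neo-epithelial samples and between 3.13 and 10.1 TPM in the 9 anal samples, which did not overlap, as for 5.28% of all genes. The log2 difference was −2.41 (SE 0.15, adjusted p = 9.33e-10 by limma). Both tissues had high squamous genes: the 10 genes summed to 11480 to 26140 TPM in neo-epithelium and 15580 to 24920 TPM in the anus of these days. Avil was higher in the neo-epithelium than in the anus, 2.93 ± 1.68 against 1.03 ± 0.68 TPM (log2 difference 0.90, SE 0.17, adjusted p = 3.34e-04 by limma). The pan-epithelial scale moved the median of all genes from 0.18 to −2.08, and with it the sign of the Avil difference (−1.36, adjusted p = 2.44e-05), which was above that median on both scales. Dclk1 was lower in the neo-epithelium, 2.27 ± 1.25 against 3.02 ± 0.51 TPM (log2 difference −0.38, SE 0.15, adjusted p = 0.0442 by limma), but the call was lost without the filter (adjusted p = 0.0696), with the mouse as a replicate block (adjusted p = 0.085) and without any 1 of mice 14 to 19 (adjusted p up to 0.13). All 3 members tested were called, where limma called 59.8% of all genes. Pou2f3 passed the filter only through the anal samples and Avil only through those of neo-epithelium. Dclk1 would not have passed through its neo-epithelial samples alone, so the filter shaped this count. Without the filter limma called 1 of 7 members higher and 1 lower in the neo-epithelium. That fit called 5744 of all 22816 genes higher and 3584 lower.

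Against the rectum, 0 of the 2 members tested (Dclk1 and Avil) were called, where limma called 42.9% of all genes, and neither had an unadjusted p under 0.05. Without the filter, which then called 28.6% of all genes, limma called Trpm5 lower in the neo-epithelium, with a mean of 0.0548 against 0.299 TPM (adjusted p = 0.0248). It called Sh2d6 lower too, with a mean of 0.235 against 1.03 TPM (adjusted p = 0.0188). Both groups overlapped in both genes. The pan-epithelial scale moved the median of all genes from 0.0022 to 1.64, and with it the sign of both differences (Trpm5 1.36, Sh2d6 1.00), which were below that median on both scales. The Trpm5 call was lost without mouse 11 (adjusted p = 0.0835 by limma), and the Sh2d6 call without mouse 11, 13 or 18 (up to 0.0651).

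Within the neo-epithelium Dclk1 fell with time. Day 9 samples had 3.4, 4.1 and 4.08 TPM, those of day 14 had 1.25, 1.73 and 2.11 TPM, and those of day 20 had 1.35, 0.914 and 1.5 TPM. Every sample of day 20 was below every one of day 9, as for 21.4% of all genes, and the log2 difference was −1.11 (SE 0.18, adjusted p = 0.00814 by limma, 0.0541 without mouse 13). Avil was 3.22, 5.09 and 5.9 TPM at day 9, 2.47, 1.2 and 1.05 TPM at day 14 and 2.5, 1.53 and 3.39 TPM at day 20, which overlapped, and it did not pass the test (−0.73, adjusted p = 0.0999). Thus 1 of 2 members tested was called, where limma called 26.2% of all genes. Dclk1 passed the filter only through the day 9 samples, so the filter shaped this count. Its call held in the 7 alternative settings in which it could be fitted. Pdgfra, a fibroblast receptor, had means of 18.0 ± 1.4 TPM at day 9 and 6.23 ± 2.89 TPM at day 20, the fibroblast genes summed to 1137 to 1652 TPM and 351 to 669 TPM. The 7 neuronal genes summed to 28.4 to 38.7 TPM at day 9 and 4.38 to 13.0 TPM at day 20, and the part of either list in the Dclk1 values was not tested.

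The deposited transcripts show which forms made up these levels. Dclk1 had 3 transcripts with values and 12 listed without values, so its shares cover those 3 only. ENSMUST00000167204, a form of 7 exons that begins near the upstream start and ends before the 2 others do, made up 54.2% of the gene's level in mid-colon, 73.0% in rectum, 83.3% in anus and 90.1% in neo-epithelium. In the rectum it went from 0.822 ± 0.32 TPM at day 0 to 2.11 ± 0.82 TPM at day 9, and in the neo-epithelium from 3.55 ± 0.35 TPM at day 9 to 1.11 ± 0.33 TPM at day 20. ENSMUST00000070418, the form of 14 exons from the internal start, had rectal means of 0.359 TPM at day 0 and 0.412 TPM at day 9. The full form of 17 exons, ENSMUST00000054237, averaged 0.166 TPM in mid-colon and less in the other sections. The day 9 level of Dclk1 in the rectum was thus carried by the short upstream form in these estimates. Of Trpm5, the full form of 25 exons, ENSMUST00000009390, averaged 0.533 ± 0.098 TPM in mid-colon at day 0, was 0.0511 TPM at day 14 and was listed at 0 in all 3 mice at day 20. In the rectum it was listed at 0 in all mice of days 14 and 20. It was listed at 0 in all 9 neo-epithelial samples and in 18 of 19 anal samples. In the anus 53.2% of the Trpm5 level was ENSMUST00000148715, a form in the part shared with Tssc4. A further 36.3% was ENSMUST00000133027, a retained-intron form of 474 bases listed at 0 in 17 of 19 anal samples. The full Avil form of 20 exons, ENSMUST00000026500, had mid-colonic means of 0.553 ± 0.13 and 1.64 ± 0.27 TPM and rectal means of 0.607 ± 0.36 and 2.96 ± 0.50 TPM on days 0 and 9. Anal Pou2f3 was nearly all 1 form, ENSMUST00000034513, with 99.9% of the level. The largest Sh2d6 form was ENSMUST00000160761, with 41.85% of the level in mid-colon and 34.54% in rectum. It is annotated for nonsense-mediated decay and not as protein-coding. These shares are estimates from short single-end reads at low levels, and they carry no test.

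**Figure D3:**
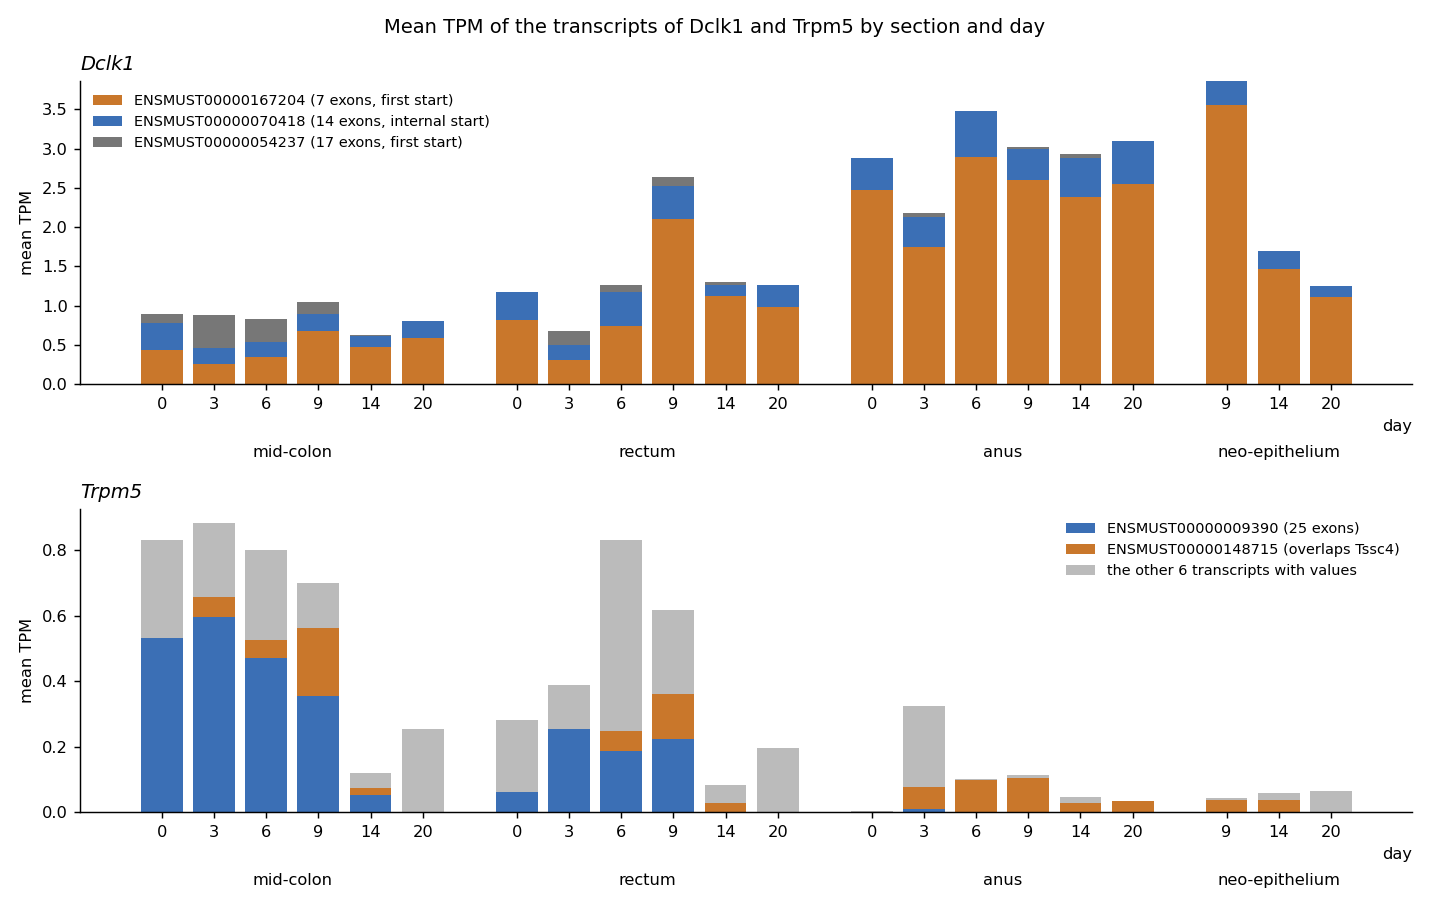
Group mean TPM of the transcripts of Dclk1 and Trpm5 (stacked bars from 0, 4 mice at day 0 and 3 at each other day, no error shown) by section and day. The 7-exon Dclk1 form makes up most of each bar in rectum, anus and neo-epithelium, and the 25-exon Trpm5 form is absent from the bars of neo-epithelium and of the rectum at days 14 and 20.

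Gfi1b and Il25 gave the least. Gfi1b, a transcription repressor, averaged 0.0813 ± 0.051 TPM in rectum and 0.0252 ± 0.034 TPM in anus, was at most 0.806 TPM (mid-colon, day 9) and was tested in no comparison. Its rectal values at day 20 were 0.134, 0.144 and 0.161 TPM, above the day 0 range of 0 to 0.114 TPM, as were 8.45% of all genes. In mid-colon 44.75% of the Gfi1b level was ENSMUST00000145690, a form of 357 bases listed at 0 in 17 of 19 samples. The 7-exon form ENSMUST00000028156 was at most 0.216 TPM there. Il25, the cytokine of the type 2 circuit, was listed at 0 in 12 of 19 mid-colonic, 18 of 19 rectal, 12 of 19 anal and 7 of 9 neo-epithelial samples and reached at most 0.345 TPM. In the rectum at day 9 it was listed at 0 in all 3 mice. At the same point 8 of the 15 genes of the type 2 circuit were tested and all 8 rose, where 33.5% of all genes were called higher. Genes that passed the filter only through high values at day 9 are among these 8, so the filter shaped this count. Without the filter 9 of 14 with values rose and 1 fell, the IL-25 receptor Il17rb, from 1.01 ± 0.11 to 0.392 ± 0.14 TPM (adjusted p = 0.00481 by limma). Among those that rose were the IL-33 receptor Il1rl1 from 0.332 ± 0.28 to 59.9 ± 3.48 TPM, the IL-4 and IL-13 receptor Il4ra from 2.03 ± 0.28 to 42.5 ± 0.53 TPM, Il33 from 6.22 ± 0.62 to 79.2 ± 14.1 TPM and the growth factor Areg from 15.2 ± 3.79 to 56.6 ± 23.1 TPM. In the mid-colon at day 9, 4 of 7 tested genes of that circuit rose and 0 fell, where 26.5% and 17% of all genes did. Without the filter 3 of 12 with values rose there and 0 fell.

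Over the 38 mid-colonic and rectal samples the members did not all vary together. These correlations of log2(TPM + 1) are a description, since samples share mice, sections and days. Trpm5 varied with Pou2f3 (Pearson r 0.67), Sh2d6 (0.67), Gnat3 (0.75), Rgs13 (0.67) and the fatty acid receptor Ffar3 (0.73, named after its values were seen). Within the 19 samples of each section, Trpm5 and Gnat3 had r of 0.72 in mid-colon and 0.73 in rectum. Dclk1 varied with Avil (0.63), Pdgfra (0.84) and the matrix gene Dcn (0.70), and its pooled r was 0.17 with Trpm5 and −0.04 with Gnat3. Within mid-colon and rectum its r was 0.47 and 0.88 with Pdgfra, 0.50 and 0.33 with Trpm5, and 0.40 and 0.07 with Gnat3. Within the mid-colon Dclk1 therefore varied with Trpm5 about as much as with Pdgfra. Avil had r of 0.07 with Gnat3, 0.55 with Pdgfra and 0.57 with Chga. Gfi1b and Il25 had a pooled r of at most 0.26 with any other member, as the map of correlations shows.

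**Figure D4:**
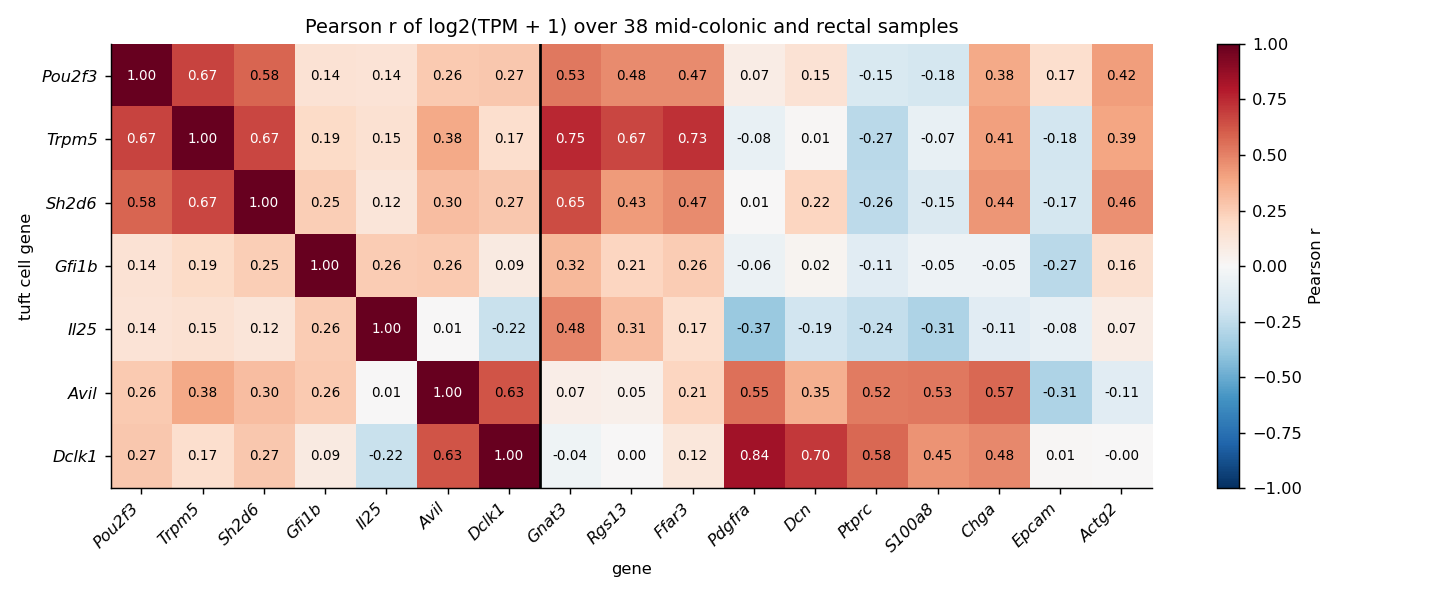
Pearson r of log2(TPM + 1) over 38 mid-colonic and rectal samples, with the 7 members as rows and the members and 10 other genes as columns (colour scale and printed values from −1 to 1). Trpm5 has its highest values with Gnat3 (0.75) and Ffar3 (0.73), and Dclk1 has its highest with Pdgfra (0.84).

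By the same measure over 12577 genes with a mean of at least 1 TPM in these 38 samples, the gene most like Dclk1 was the RNA-binding protein gene Qk (r 0.86), followed by the interleukin 1 receptor Il1r1 (0.85), Amotl1 (0.85), the receptor kinase Axl (0.84) and Dse (0.84). Those most like Trpm5 were the homeobox gene Meis3 (0.68), Rgs13 (0.67), Spire2 (0.65) and Sln (0.61). Those most like Avil were Bex3 (0.79), Rad51c, Timm10b, Mtap and Cyb5r1 (each 0.78). Pou2f3 had Meis3 first too (0.66), then Sntg2, Rims1, Oaz2 and Rgs16 down to 0.61. Sh2d6 had Hspb7 (0.65), Rims1, Pcp4l1, Lyve1 and Tpm2 down to 0.59. Gfi1b and Il25 had lower values, with Pagr1b (0.51) and Uqcrh (0.54) first. Meis3 was thus among the 5 most alike for both Trpm5 and Pou2f3, and Rims1 for both Pou2f3 and Sh2d6.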

How the data were processed

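RNA was measured in bulk tissue of 66 samples. The authors deposited 1 table of transcript TPM values, made with kallisto and mm10 per the submitters' processing notes (CASAVA is also named there, and versions, index and strand setting are not given in the sources used here). Of 126860 rows, 37344 had no values and 1318 were repeats of a transcript, which were dropped; TPM was summed per gene over 88198 transcripts. No counts were in the table, so depth is unknown.

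Models were fitted with limma 3.58.1 in R 4.3.3 on log2(TPM + 1), which understates the change of low genes, with a trended prior, on the samples of the groups compared. A gene entered if the number of samples at or above 1 TPM was no less than the size of the smaller group, and calls have a Benjamini-Hochberg adjusted p under 0.05 over all genes tested. The fits were checked on simulated data. Loci are from GENCODE vM21 and start regions from RefSeq.

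The 7 members and the lists were chosen with earlier results of these data known. Named are all members, up to 4 called genes with a mean of at least 1 TPM per list and comparison with the largest change, and the 5 genes most like each member (some genes are not reported here); Chga, Epcam, Pdgfra, Dcn, Ffar3, Gnat3, Il17rb, Ptprc and the overlapping genes were chosen after their values were seen. Mouse numbers in the labels link sections of 1 mouse. The mean correlation of their deviations from group means was between 0.054 and 0.503, and a fit with the mouse as a block was run. Alternatives were the pseudocount, the filter, TMM factors, scaling to 6 pan-epithelial genes, the prior, a joint fit over days and leaving out each mouse. Single-cell samples of the study were not used here.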

Additional observations from a re-analysis of the deposited data

Results flagged for a closer look

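In groups of 4 samples, the day 0 groups, 1 sample stood apart from the other 3 by Dixon's criterion in 4 of 20 groups tested. For Trpm5 and Il25 in the anus, with 3 samples listed at 0, any value above 0 in the other met the criterion. The chance rate of about 1 in 20 therefore does not apply to this count. Trpm5 in the anus at day 0 was listed at 0 in 3 mice and at 0.015 TPM in the other. Dclk1 in the rectum at day 0 reached 1.83 TPM in mouse 4, with the other 3 between 0.918 and 1.06 TPM. Avil in the anus at day 0 reached 2.85 TPM in mouse 2, with the others at 0.525 to 0.853 TPM. Il25 in the anus at day 0 was at 0.06 TPM in 1 mouse and listed at 0 in the other 3.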

How the results depend on the processing

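The calls of Avil at day 9 in both colonic sections and of Pou2f3 in anus against rectum and against neo-epithelium held under every alternative in which they could be fitted and without each mouse. Counts of members called that moved were as follows. Mid-colon over days 3 to 20 had 1 call, 2 without the filter, with or without a pseudocount of 0.1 (added after seeing the data), and 0 at a filter of 5 TPM. Rectum over these days had 2 calls, 1 with a pseudocount of 0.1, without the filter (either pseudocount) or with TMM factors, 0 at 5 TPM, and 1 to 2 without 1 mouse. The anus had 0 calls and 7 on the pan-epithelial scale, on which the median log2 difference of all genes reached 3.49 (day 6). Anus against rectum had 2 calls, 4 without the filter (either pseudocount), 1 at 5 TPM and 1 to 2 without 1 mouse. Neo-epithelium against rectum had 0 calls, 2 without the filter (either pseudocount) and 2 on the pan-epithelial scale. Neo-epithelium against anus had 3 calls, 0 at 5 TPM, 2 without the filter (either pseudocount), 2 to 3 without 1 mouse, and 2 when mouse entered as a replicate block, which changed no other call. Day 20 against day 9 in neo-epithelium had 1 call, 0 at 5 TPM, 2 on the pan-epithelial scale and 0 to 1 without 1 mouse. The same comparison in mid-colon and rectum had 1 call, 0 without the filter (either pseudocount) or at 5 TPM, 2 on the pan-epithelial scale and 0 to 1 without 1 mouse. The difference of responses had 0 calls and 0 to 1 without 1 mouse. A higher filter tests fewer members; for the other settings but the pan-epithelial scale the cause was not tested. The pan-epithelial scale adds 1 amount to the log2 difference of every gene in a comparison, so counts and signs on it move with all genes. On it the signs turned for Avil in neo-epithelium against anus (−1.36), for Trpm5 and Sh2d6 in anus against rectum (1.84 and 1.48) and for both in neo-epithelium against rectum (1.36 and 1.00), where the median of all genes moved from 0.18 to −2.08, from −0.15 to 2.03 and from 0.0022 to 1.64, the last 4 member values in fits without the filter that were added after seeing the data. Unknown depth limits every value under 1 TPM.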
